A study of Mus musculus with 96 samples.

Results

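Gfap, Vim, Nes and Synm encode the intermediate filament proteins of glial and progenitor cells, and their mRNA levels were followed here in mouse brain after controlled cortical impact. The members are these 4 gene symbols, and all 4 were present among the 32594 gene symbols of the count tables and passed the filter on low counts in every comparison. Bulk mRNA sequencing covered the ipsilateral hippocampus, thalamus and hypothalamus of male C57BL/6 mice that were 8 to 10 weeks old, at 3 and 29 days post-injury (dpi). Each region and time point held 4 groups of 4 libraries, 96 in all: sham surgery with vehicle (Sham + VH), impact with vehicle (TBI + VH), sham surgery with candesartan (Sham + CD) and impact with candesartan (TBI + CD). Candesartan blocks the angiotensin II type 1 receptor. At 3 dpi, vehicle or 0.1 mg/kg/day candesartan had been injected into the peritoneum at 6, 24 and 48 h. At 29 dpi, an injection at 6 h had been followed at 24 h by an osmotic pump under the skin that delivered the same dose or vehicle until the end. Time point and route of dosing therefore cannot be told apart. No group was left without injections, and sham mice had anaesthesia and a scalp incision but no opening of the skull, so that the TBI groups differed from them by the craniectomy as well as by the impact. The labels do not say whether the 4 libraries of a group came from 4 mice, and p-values then measure only the spread between these libraries. The 4 samples with the best RNA in each group had been selected for sequencing.

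Intermediate filaments are rope-like polymers that give a cell mechanical strength. Gfap encodes the main filament protein of mature astrocytes and its rise is the usual sign of reactive astrogliosis, in which astrocytes enlarge around an injury. Vim encodes vimentin, which polymerises with Gfap in reactive astrocytes and is also made by ependymal cells and tanycytes, endothelial cells, fibroblasts and activated microglia. Nes encodes nestin, a filament protein of neural progenitors, of some reactive astrocytes and of growing or injured vessels. Nes and Synm, which encodes synemin, do not form filaments alone and need a partner such as vimentin.

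In the GRCm38 annotation, Gfap lies at chr11:102887336-102900912 on the minus strand, Vim at chr2:13573927-13582826 on the plus strand, Nes at chr3:87971078-87980451 on the plus strand and Synm at chr7:67730160-67759742 on the minus strand. Synm shares exon bases with Ttc23 and Gm45102 on the opposite strand, and its counts may include their reads, because the strand setting of the counting is not given in the sources used here. The merged exons measured 4218 bases in Gfap, 4743 in Vim, 6416 in Nes and 7933 in Synm, and these lengths were used for levels per kilobase.

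Promoter windows are shown for the 2 genes that rose most, Gfap and Vim, and, for comparison, for Synm, which was called in no injury comparison. They are RefSeq sequence of GRCm38.p6, run 5′ to 3′ along the gene from 250 bases before to 50 bases after the start that RefSeq gives, which for Gfap and Vim lies inside the longer span named above, and lie at chr11:102897151-102897450 (minus strand), chr2:13574061-13574360 (plus strand) and chr7:67759693-67759992 (minus strand). Capitals mark matches to 4 letter patterns searched on both strands. The first was TTCNNNGAA, the core bound by STAT factors, which are activated by cytokine receptors. The second was TGANTCA, the letters bound by the AP-1 factors of the Fos and Jun families. The third was TATAAA, the usual form of the TATA box that places the start of transcription. The last was CCAAT, the box bound by the NF-Y complex, which stands as its reverse complement where it lies on the other strand.
Gfap: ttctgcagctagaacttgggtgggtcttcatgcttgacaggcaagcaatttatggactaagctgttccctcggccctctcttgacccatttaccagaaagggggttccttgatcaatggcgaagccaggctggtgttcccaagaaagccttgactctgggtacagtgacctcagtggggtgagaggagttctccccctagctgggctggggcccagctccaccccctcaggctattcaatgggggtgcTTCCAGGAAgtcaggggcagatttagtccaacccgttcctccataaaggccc
Vim: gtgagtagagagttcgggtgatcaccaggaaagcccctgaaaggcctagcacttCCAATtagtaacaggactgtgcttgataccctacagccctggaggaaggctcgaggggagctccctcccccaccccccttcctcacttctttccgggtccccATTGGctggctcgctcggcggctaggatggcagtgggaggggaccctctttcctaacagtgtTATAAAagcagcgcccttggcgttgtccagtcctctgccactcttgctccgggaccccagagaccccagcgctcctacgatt
Synm: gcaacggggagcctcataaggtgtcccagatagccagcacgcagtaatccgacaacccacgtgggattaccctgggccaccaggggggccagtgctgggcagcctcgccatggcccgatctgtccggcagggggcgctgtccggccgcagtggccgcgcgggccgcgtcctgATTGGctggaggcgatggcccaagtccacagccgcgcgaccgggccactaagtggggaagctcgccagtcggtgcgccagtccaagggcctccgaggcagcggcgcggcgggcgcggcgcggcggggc
Of 27025 promoter windows of this length, 8.47% held the STAT pattern, 7.93% the AP-1 pattern, 14.2% the TATA pattern and 37.9% the CCAAT box. Gfap held 1 STAT pattern, which matched on both strands and began at base −2 from the start. Vim held the TATA pattern at base −32 and the CCAAT box at bases −196 and −94, and Synm held the CCAAT box at base −78. The Nes window (chr3:87970843-87971142) held none of the 4 patterns, and none of the windows of the 4 genes held the AP-1 pattern. These matches are letters in a window and not binding sites.

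Libraries held 6663629 to 38589791 counted reads, and the shallowest were in the hippocampus at 29 dpi. The markers of each region, taken as a sum, were highest in the region named by the label. The hippocampal marker Prox1 by itself was not, with Sham + VH means at 3 dpi of 43.1 CPM in the hippocampus and 45.9 CPM in the thalamus. In Sham + VH at 3 dpi, 4 hippocampal markers summed to 387 to 466 CPM (read counts scaled to a common library size) in the hippocampus and to at most 152 elsewhere, and 4 thalamic markers to 992 to 1548 CPM in the thalamus and to at most 109 elsewhere. Markers of hypothalamic neuropeptide cells summed to 652 to 1545 CPM in the hypothalamus but also reached 463 CPM in the thalamus. The choroid plexus list varied widely among hippocampal and thalamic libraries at both times. In the hippocampus at 3 dpi its 7 genes summed to 202 to 6828 CPM in the vehicle shams, where the candesartan shams held 61.2 to 116 CPM. The injured libraries held 21.9 to 171 CPM with vehicle and 21.4 to 2723 CPM with candesartan. In the thalamus at 3 dpi the list also ranged from 23.9 to 3370 CPM in the vehicle shams, against 24.5 to 53.6 CPM after injury with vehicle. At 29 dpi the vehicle shams had a median of 2292 CPM in the hippocampus and 1177 CPM in the thalamus, compared with 259 and 29.6 CPM after injury with vehicle and 1494 and 49.8 CPM after injury with candesartan. Results on the hippocampus are therefore also given with a score of this list in the fit where that moved a call. At 3 dpi the hippocampal sums did not overlap between Sham + VH and TBI + VH. That fit therefore cannot fully separate the list from the injury in this comparison. No such fit was made for the thalamus.

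In uninjured tissue, Gfap was the most abundant of the 4 genes per kilobase in every region. In the hippocampus of Sham + VH mice at 3 dpi, the level per kilobase was 81.7 ± 16.8 CPM for Gfap, 8.24 ± 1.07 for Vim, 7.73 ± 0.22 for Synm and 1.87 ± 0.26 for Nes (SD, n = 4 here and below). Gfap alone made up 81.8% ± 2.4 of the summed level of the 4 genes there, 78.3% ± 10.6 in the hypothalamus and 62.7% ± 2.4 in the thalamus. Before scaling by length, Gfap stood at 248, 347, 417 and 367 CPM in the hippocampus, at 280, 277, 225 and 155 CPM in the hypothalamus and at 98.7, 115, 99.0 and 81.4 CPM in the thalamus. The thalamic libraries lay below all others, and the ranges of the hippocampus and hypothalamus overlapped.

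Each region contrast below is a difference of log2 levels with its standard error (SE) from a model of all genes, and a gene was called where the adjusted p was under 0.05 and the log2 difference exceeded 0.32 in size. Hippocampus against thalamus gave 2 of 4 genes called at 3 dpi, where 40.8% of all genes tested were called. Gfap was higher in the hippocampus by 1.85 (SE 0.27, adjusted p = 4.75e-06) and Synm by 0.42 (SE 0.08, adjusted p = 9.91e-05). Hippocampus against hypothalamus gave 1 of 4 genes, beside 46.4% of all genes, with Synm higher by 0.78 (SE 0.08, adjusted p = 1.47e-08). Gfap just missed the threshold there, with a difference of 0.61 (SE 0.27, adjusted p = 0.0523). Thalamus against hypothalamus gave 2 of 4, beside 28.0% of all genes, with Gfap lower in the thalamus by a difference of −1.24 (SE 0.27, adjusted p = 0.000796) and Synm higher by 0.36 (SE 0.08, adjusted p = 0.000987). The Synm call was lost without the second hypothalamic Sham + VH library, where the difference was 0.28.

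At 29 dpi, all 3 pairs of regions differed in Gfap. Hippocampus against thalamus gave 1 of 4 genes called beside 38.9% of all genes, with Gfap higher by 1.59 (SE 0.26, adjusted p = 1.41e-05). Hippocampus against hypothalamus gave 2 of 4 beside 45.0%, Gfap by 0.77 (SE 0.25, adjusted p = 0.0117) and Synm by 0.53 (SE 0.12, adjusted p = 0.000507). Thalamus against hypothalamus gave 2 of 4 beside 32.4%, with Gfap at −0.83 (SE 0.25, adjusted p = 0.00954) and Synm at 0.45 (SE 0.12, adjusted p = 0.00295). Synm thus was lowest in the hypothalamus at both times, at 37.0 ± 4.6 and 40.6 ± 2.1 CPM. In this model Vim and Nes were called between no pair of regions at either time, with Vim means of 30.4 to 39.1 CPM at 3 dpi and 33.5 to 41.4 CPM at 29 dpi in the Sham + VH groups.

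**Figure D1:**
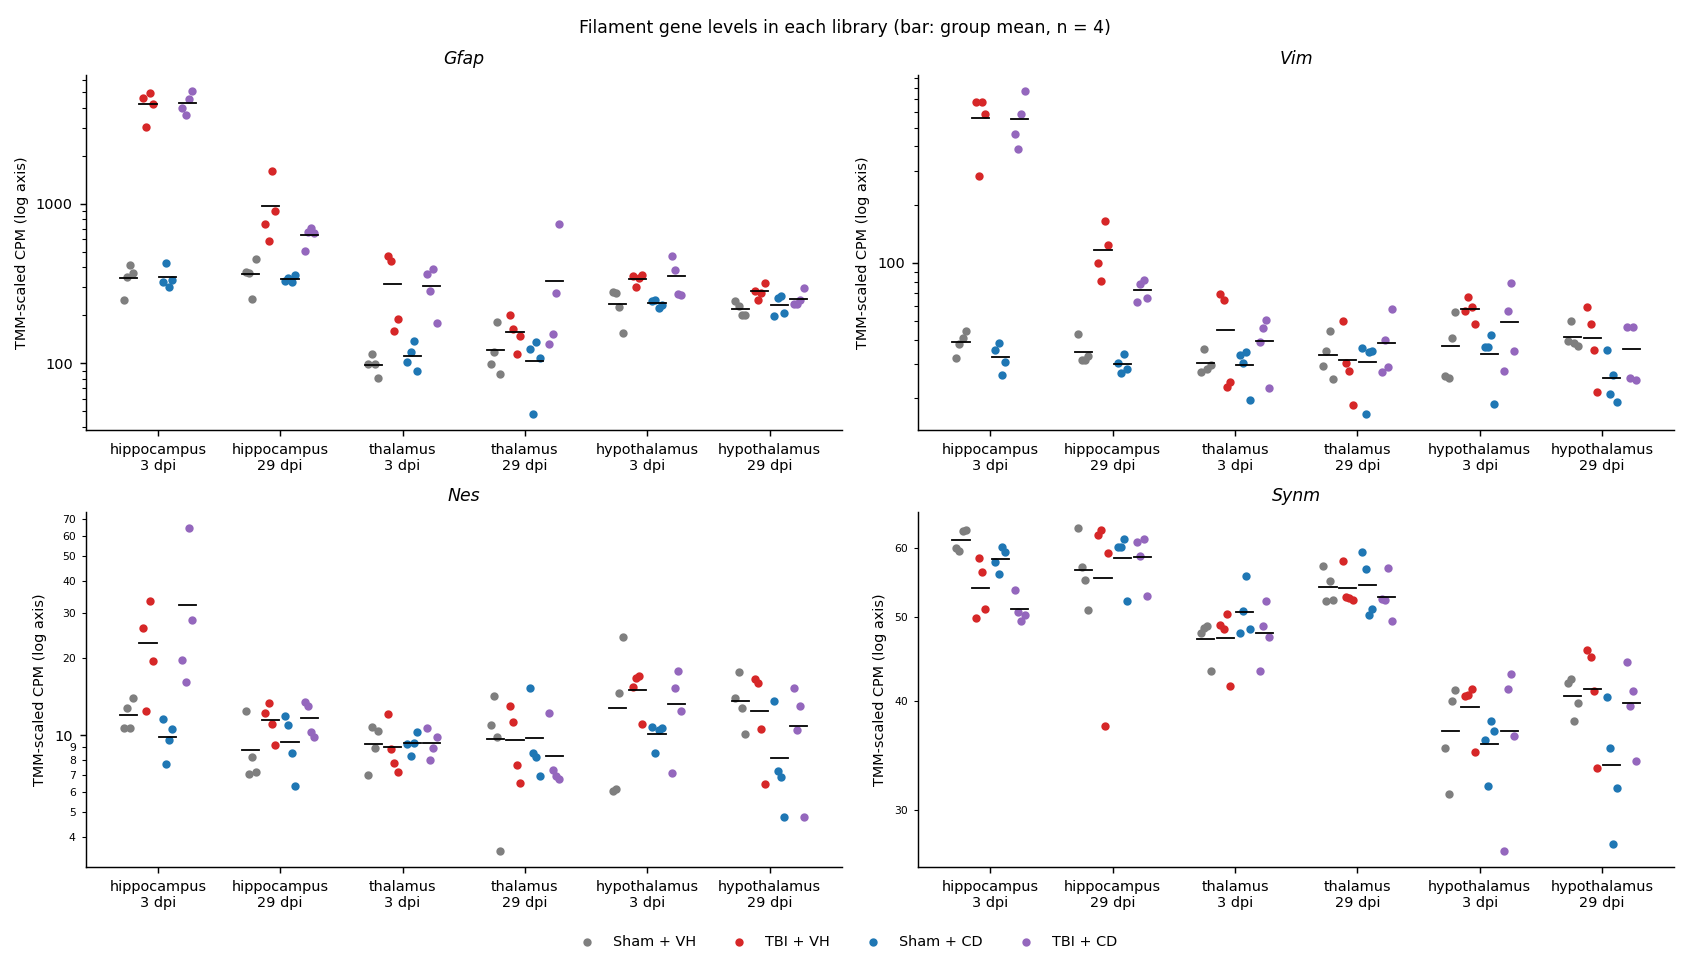
Normalised level (TMM-scaled CPM, log axis) of Gfap, Vim, Nes and Synm in each of the 96 libraries, by region, time point and group, with a bar at the group mean (n = 4). In the hippocampus at 3 dpi the TBI libraries sit at 3020 to 5129 CPM for Gfap and 280 to 775 CPM for Vim, far above every sham library of that region, while Synm moves little.

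Among the injury comparisons, the hippocampus at 3 dpi held the largest log2 fold changes of Gfap and Vim. Gfap stood at 4630, 3020, 4995 and 4260 CPM in TBI + VH, against 248 to 417 CPM in Sham + VH. Vim stood at 681, 280, 680 and 589 CPM in TBI + VH, against 32.4, 38.3, 41.2 and 44.3 CPM in Sham + VH. Neither gene's groups overlapped, and the second TBI + VH library was the lowest for both. The comparison called 2 of the 4 genes, both higher, where 10.7% of the 16756 genes tested were called in either direction. Gfap rose 12.3-fold, a log2 fold change of 3.62 (SE 0.19, adjusted p = 4.48e-09), and ranked 2 of 16756 by p. Vim rose 14.4-fold, a log2 fold change of 3.85 (SE 0.27, adjusted p = 1.33e-07), and ranked 7. With the choroid plexus score in the fit, the log2 fold changes were 3.36 for Gfap and 3.56 for Vim, and both stayed called. In bulk tissue, more cells of a type and more RNA per cell cannot be told apart.

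The same comparison in candesartan-treated mice gave near-identical values for Gfap and Vim. TBI + CD libraries held 3975, 3586, 4559 and 5129 CPM of Gfap and 462, 388, 587 and 775 CPM of Vim. All lay above every Sham + VH library. Against Sham + VH, 3 of the 4 genes were called, all higher, beside 12.1% of all genes, with log2 fold changes of 3.65 (SE 0.19, adjusted p = 4.12e-09) for Gfap and 3.83 (SE 0.27, adjusted p = 1.09e-07) for Vim. The third gene was Nes. Both TBI groups were set against the same Sham + VH libraries. Against Sham + CD, TBI + CD gave log2 fold changes of 3.63 for Gfap and 4.06 for Vim.

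Nes rose in TBI + CD but was spread widely among libraries. It stood at 10.6, 12.7, 10.6 and 14.0 CPM in Sham + VH, at 26.1, 12.4, 33.3 and 19.5 CPM in TBI + VH and at 19.7, 16.2, 64.4 and 28.2 CPM in TBI + CD. The second TBI + VH library lay within the sham range, whereas all TBI + CD libraries lay above it. The log2 fold change against Sham + VH was 1.43 (SE 0.36, adjusted p = 0.00953) in TBI + CD and 0.94 (SE 0.36, adjusted p = 0.0977) in TBI + VH. The TBI + VH value became a call without that second library (log2 fold change 1.15, adjusted p = 0.0347) or without the third TBI + CD library (0.95, adjusted p = 0.0117), which reached 64.4 CPM. The difference between the TBI + CD and TBI + VH groups itself was 0.49 (95% confidence interval −0.24 to 1.21, adjusted p = 0.999). With the choroid plexus score in the fit, the TBI + CD value fell to 0.88 (adjusted p = 0.279) and was no longer called, and the TBI + VH value was 0.30 (adjusted p = 0.860). Without the third TBI + CD library, Nes in TBI + CD was 0.84 above Sham + VH (adjusted p = 0.0417), and the difference between the TBI groups was −0.11.

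Other cell types that carry Nes were measured beside it. The 5 dividing-cell markers, all of which rose in TBI + VH and in TBI + CD, summed to 4.21 to 6.25 CPM in Sham + VH, 16.6 to 83.2 in TBI + VH and 27.6 to 96.7 in TBI + CD, and the library with the most Nes was the one with the highest sum. Pericyte and smooth muscle markers summed to 73.8 to 96.9 CPM in Sham + VH and 88.0 to 149 in TBI + CD. Of these 7 genes 1 rose in TBI + CD, where 10.3% of all genes tested were called upward. In TBI + VH, where 8.99% of all genes were called upward, edgeR called 0 of the 7. There 2 had an unadjusted p under 0.05 and DESeq2 called 1. The counts of dividing-cell markers stand beside the same shares. The 8 endothelial markers summed to 116 to 184 CPM in the vehicle shams and to 137 to 166 CPM in TBI + CD. The part of these cells in the Nes values was not tested.

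Synm values were slightly lower after injury, and Synm was not called. It stood at 60.1, 59.7, 62.8 and 62.9 CPM in Sham + VH, at 49.9, 58.5, 56.4 and 51.0 CPM in TBI + VH and at 53.7, 50.6, 49.5 and 50.2 CPM in TBI + CD. Neither TBI group overlapped Sham + VH. The log2 fold changes were −0.18 (SE 0.05, adjusted p = 0.0244) and −0.27 (SE 0.05, adjusted p = 0.00129), both of them smaller than the 0.32 that a call required. With the choroid plexus score in the fit they were −0.12 (adjusted p = 0.474) and −0.22 (adjusted p = 0.0440). The TBI + VH value had an adjusted p of 0.0922 when only the 8 libraries compared were fitted. Within groups, deviations of Synm and of the choroid plexus list correlated at 0.474 over the 32 hippocampal libraries, and the part of that list in the Synm values was not tested. As a share of the summed per-kilobase level of the 4 genes, Synm went from 7.96% ± 1.47 in Sham + VH to 0.634% ± 0.205 in TBI + VH, while the sum went from 99.6 ± 17.9 to 1130 ± 244 CPM per kilobase. The share of Vim was 8.35% ± 0.75 and 10.1% ± 1.8.

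The other intermediate filament genes did not follow Gfap and Vim. Of 12 listed, 11 were tested in TBI + VH against Sham + VH in the hippocampus at 3 dpi, with 1 higher, 2 lower and a median log2 fold change of −0.177, where the median over all genes tested was −0.0129 and 1507 genes were called higher and 289 lower of 16756. Lmnb1, a lamin of the nuclear envelope, rose by 0.52 (SE 0.16, adjusted p = 0.0358). Krt18 and Krt8 encode the keratin pair of simple epithelia. Krt18 fell by 3.34 (SE 0.69, adjusted p = 0.00282) on the log2 scale, and Krt8 fell by 2.67 (SE 0.66, adjusted p = 0.00945). Uninjured Sham + CD libraries were also below Sham + VH, with means of 0.763 CPM for Krt18 and 0.169 CPM for Krt8, where Sham + VH had 8.51 and 2.92 CPM and TBI + VH 0.847 and 0.475 CPM. Low keratin levels were thus also present without injury. They came beside those of the choroid plexus list, an epithelium, of which 7 of 7 genes fell with a median of −6.04, and its part in the keratin values was not tested. The neuronal filament gene Nefl, named outside the rule for called genes, had a mean of 352 CPM in the injured vehicle group, where the vehicle shams had 414 CPM, a log2 fold change of −0.23 (SE 0.07, adjusted p = 0.0284) that was smaller than a call required.

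Of the 9 genes listed as filament partners, 4 were called upward in TBI + VH, with a median log2 fold change of 0.396. The list was broad, and binding of each product to filaments was not tested. Among all genes tested, 8.99% were called upward in this comparison and 10.3% in TBI + CD, and the counts of the regulator, astrocyte and microglia lists stand beside the same shares. Cryab, a small heat shock protein that binds Gfap and vimentin filaments, rose by 0.40 (SE 0.09, adjusted p = 0.0077). S100a6, a calcium-binding protein, rose by 2.93 (SE 0.25, adjusted p = 4.92e-07), from a mean of 6.78 to 51.0 CPM. S100a10, the binding partner of annexin A2, rose by 1.37 (SE 0.18, adjusted p = 4.28e-05). In TBI + CD 3 of the 9 were called. The large linkers of the plakin family, Plec, Dst and Macf1, also named outside that rule, were called in neither group.

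The list of regulators of astrocyte filament genes held cytokines of the interleukin-6 family, their receptors, Stat3, the TGF-beta axis, Notch components and glial transcription factors. Of 18 genes tested 11 rose and 1 fell, with a median of 0.422. Il6st, the receptor chain shared by these cytokines, rose by 0.36 (SE 0.07, adjusted p = 0.0012). Stat3, the factor that these receptors activate, rose by 1.03 (SE 0.09, adjusted p = 4.57e-07), from a mean of 46.4 to 93.9 CPM. Notch1, a receptor that keeps progenitors undifferentiated, rose by 0.51 (SE 0.11, adjusted p = 0.00483). Some further genes were chosen after their values were seen. Socs3, the feedback inhibitor of signalling through Stat3, rose by 3.09, Osmr, the oncostatin M receptor, by 2.16 and Lif, a ligand, by 1.72. Hes5, a target of Notch, was chosen in the same way and fell by 0.82. In TBI + CD the list gave 9 higher and 1 lower of 18.

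**Figure D2:**
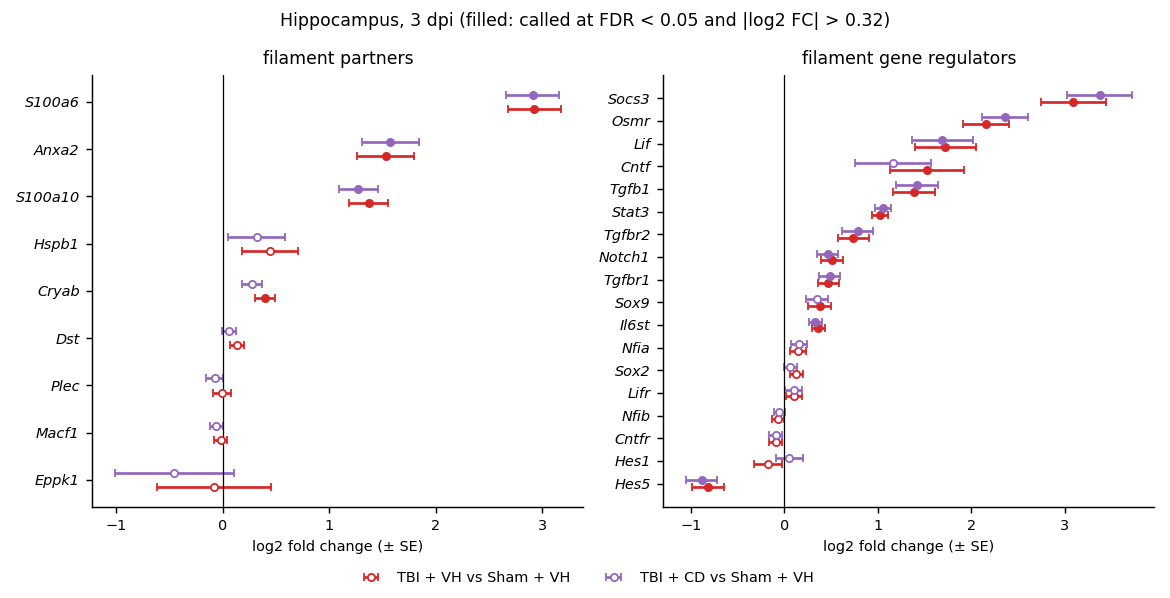
Log2 fold change (± SE) against Sham + VH in the hippocampus at 3 dpi for the tested genes of the filament partner and filament gene regulator lists, in TBI + VH and TBI + CD. Filled points were called. S100a6 and Socs3 lead their lists, the plakin linkers lie near 0, and both TBI groups share the Sham + VH libraries.

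Most of the listed astrocyte genes that do not encode filaments were also called upward, with smaller changes than Gfap and Vim. Of 10, 6 were called upward in TBI + VH and 7 in TBI + CD, with medians of 0.404 and 0.472. Slc1a3, a glutamate transporter, rose by 0.39 (SE 0.09, adjusted p = 0.00452), Gja1, the gap junction protein connexin 43, by 0.74 (SE 0.09, adjusted p = 2.38e-05) and Aqp4, the water channel of astrocyte endfeet, by 1.45 (SE 0.18, adjusted p = 2.22e-05) in TBI + VH. Microglia and macrophage markers rose in 8 of 8 cases with a median of 1.63, among them Csf1r by 1.36, Cx3cr1 by 1.21 and Itgam by 1.90, and summed to 493 to 716 CPM in TBI + VH against 232 to 251 in Sham + VH. By edgeR 0 of 7 neuronal and 0 of 5 oligodendrocyte markers were called, with 4 and 3 at an unadjusted p under 0.05 and 0 called by DESeq2, and the medians were −0.167 and 0.452. Among endothelial markers 1 of 8 was called, Kdr, a receptor of vascular endothelial growth factor, which fell by 0.75. Among fibroblast markers 1 of 6 was called, Ogn, a matrix proteoglycan, which fell by 1.78. Kdr had a mean of 15.4 CPM in the vehicle shams, 9.06 CPM in TBI + VH and 10.9 CPM in the uninjured Sham + CD group, and Ogn had 3.16 CPM in TBI + VH and 6.75 CPM in Sham + CD. Both were named after their values were seen. How far microglia, which can make vimentin, contributed to Vim was not tested.

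In the thalamus at 3 dpi, Gfap alone was called. It stood at 98.7, 115, 99.0 and 81.4 CPM in Sham + VH, at 473, 437, 159 and 191 CPM in TBI + VH and at 361, 285, 389 and 180 CPM in TBI + CD. All injured libraries lay above all shams, and TBI + VH split into a high and a low pair. In each TBI group 1 of 4 genes was called, beside 0.298% of all genes with vehicle and 0.418% with candesartan. The log2 fold changes were 1.68 (SE 0.31, adjusted p = 0.0269) and 1.63 (SE 0.31, adjusted p = 0.0276). Without single libraries the adjusted p reached 0.125 in TBI + VH and 0.113 in TBI + CD. Each vehicle sham library, when left out, cost the call. So did leaving out replicate 1 or 2 of the vehicle-treated or replicate 1, 2 or 3 of the candesartan-treated injured group, with log2 fold changes of 1.41 to 1.76 and 1.49 to 1.71 in the fits that lost it. It was also lost in the TBI + VH comparison when only its 8 libraries were fitted (adjusted p = 0.215) and for TBI + CD against Sham + CD (log2 fold change 1.44, adjusted p = 0.0975). Over the alternatives other than leaving out a library, the TBI + VH log2 fold change was 1.61 to 1.68.

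Vim in the thalamus followed the same split without passing the test. It stood at 27.5, 35.9, 28.3 and 29.8 CPM in Sham + VH and at 68.9, 64.1, 22.8 and 24.4 CPM in TBI + VH, so that 2 injured libraries were the highest and 2 the lowest of these 8. The log2 fold change was 0.57 (95% confidence interval −0.12 to 1.26) in TBI + VH and 0.39 (−0.30 to 1.08) in TBI + CD. The 6 ependyma and tanycyte markers summed to 84.4 and 103 CPM in the high pair and 54.4 and 45.3 CPM in the low pair. For Nes the log2 fold changes in TBI + VH and TBI + CD were −0.05 (−0.39 to 0.28) and 0.01 (−0.33 to 0.35), and for Synm 0.01 (−0.15 to 0.16) and 0.03 (−0.13 to 0.18).

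The ratio of Gfap to Vim per kilobase set the thalamus apart from the hippocampus in these values. In the thalamus it was 3.07 to 4.03 in Sham + VH and 7.67 to 8.79 in TBI + VH, so that the high and low pairs had nearly the same ratio. With candesartan it was 3.42 to 5.13 after sham surgery, compared with 6.95 to 10.4 after injury. In the hippocampus it was 8.63 to 11.4 in Sham + VH and 7.65 to 12.1 in TBI + VH, with overlapping ranges. With candesartan the hippocampal ratio was 10.2 to 12.8 (mean 11.9) after sham surgery and 7.44 to 10.4 (mean 9.06) after injury, which also overlapped. Microglia markers also rose in the injured thalamus, 6 of 8 in both TBI groups, with sums of 242 to 312 CPM in TBI + VH against 171 to 203 CPM in Sham + VH. Dividing-cell markers rose in 2 of 4 tested. Of 9 filament partners and 17 regulators tested there, edgeR called 0 in either TBI group. At an unadjusted p under 0.05 there were 1 partner and 4 regulators with vehicle and 0 and 6 with candesartan, and DESeq2 called 1 partner with vehicle. Of 10 other astrocyte genes edgeR called 1, Aldh1l1, a folate enzyme, in TBI + CD (0.36, adjusted p = 0.0378).

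**Figure D3:**
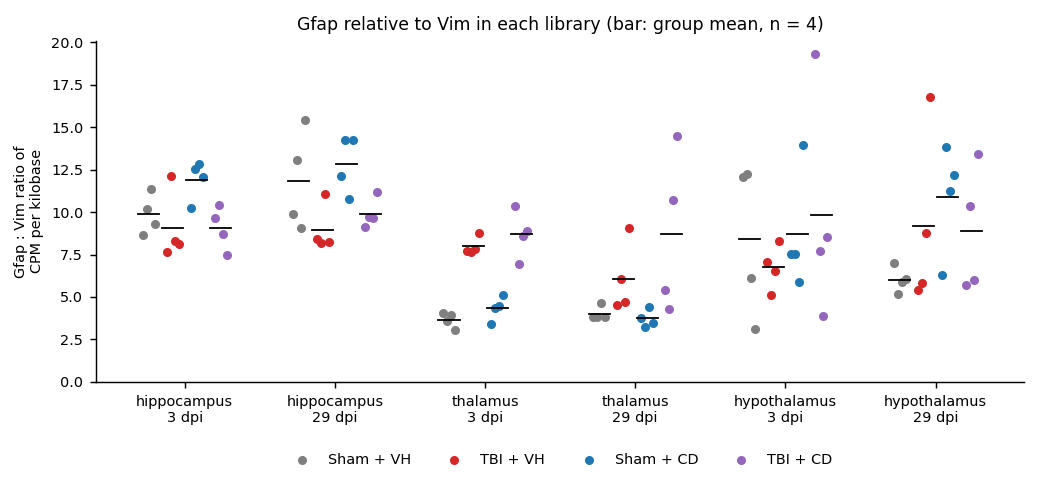
Ratio of Gfap to Vim, each in CPM per kilobase of exon, in each library by region, time point and group, with a bar at the group mean (n = 4). In the thalamus at 3 dpi the TBI + VH libraries sit at 7.67 to 8.79 above Sham + VH at 3.07 to 4.03, while in the hippocampus the groups overlap.

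In the hypothalamus at 3 dpi no member was called in either TBI group, where 0% of all genes were called. Gfap was at 280, 277, 225 and 155 CPM in Sham + VH, at 353, 301, 344 and 358 CPM in TBI + VH and at 475, 387, 274 and 268 CPM in TBI + CD. TBI + VH did not overlap Sham + VH and TBI + CD did. The log2 fold changes were 0.55 (SE 0.17, 95% confidence interval 0.18 to 0.91, adjusted p = 1) and 0.59 (SE 0.17, 0.22 to 0.96, adjusted p = 0.994), and Gfap was the 1 gene of the 4 with an unadjusted p under 0.05 in each. Vim gave 0.63 (−0.05 to 1.31) and 0.42 (−0.26 to 1.11). The 6 ependyma and tanycyte markers, described next, summed to 109 to 185 CPM in TBI + VH (median 152) and 31.6 to 192 CPM in TBI + CD (median 123), where the vehicle shams had 27.1 to 206 CPM (median 70.9), and their part in the Vim difference was not tested. DESeq2 called no member either.

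Vim, Nes and Synm in the hypothalamus varied with ependymal markers and against oligodendrocyte markers, and Gfap did the reverse. Ependymal cells line the ventricles and tanycytes are their elongated relatives in the floor of the third ventricle, and both make vimentin and nestin. The 6 markers of the list summed to 27.1, 27.2, 115 and 206 CPM in the 4 Sham + VH libraries at 3 dpi. Nes was at 6.04, 6.15, 14.6 and 24.2 CPM in the same libraries and Vim at 26.1, 25.5, 41.2 and 56.1 CPM. The first 2 libraries were low and the fourth high in all 3 measures, while Gfap was lowest in the fourth. Rax, a marker of this list with a mean under 1 CPM over all libraries, was left out of the coefficients that follow. Across the 32 hypothalamic libraries, the correlation of deviations from the group mean of log2 values with the list was 0.876 for Vim, 0.849 for Nes, 0.774 for Synm and −0.689 for Gfap. With the list of 5 oligodendrocyte markers it had the opposite sign, at −0.861 for Vim, −0.83 for Nes, −0.585 for Synm and 0.594 for Gfap. These coefficients are descriptions of libraries that share 8 group means and a common scaling, and their part in the comparisons was not tested. In the hippocampus the same coefficient for Vim was −0.179, and in the thalamus 0.83.

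**Figure D4:**
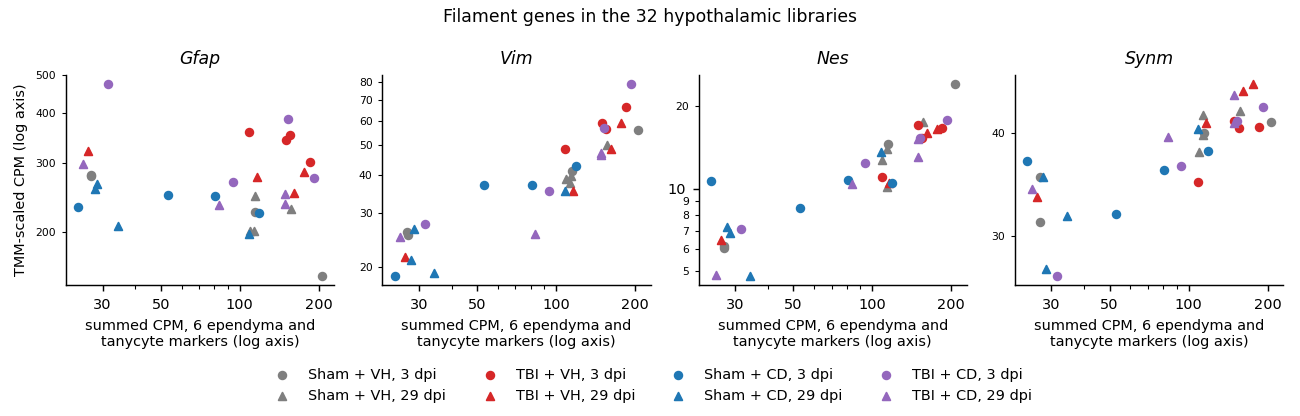
Level of each gene (TMM-scaled CPM, log axis) against the summed level of 6 ependyma and tanycyte markers (log axis) in the 32 hypothalamic libraries, coloured by group, with circles for 3 dpi and triangles for 29 dpi. Vim, Nes and Synm climb with the markers and Gfap does not.

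At 29 dpi the hippocampus had a smaller Gfap and Vim difference. Gfap stood at 376, 367, 255 and 452 CPM in Sham + VH, at 751, 588, 1619 and 905 CPM in TBI + VH and at 509, 669, 704 and 658 CPM in TBI + CD. Vim stood at 42.8, 31.6, 31.6 and 33.0 CPM in Sham + VH, at 100, 80.6, 165 and 124 CPM in TBI + VH and at 62.7, 77.6, 82.2 and 66.1 CPM in TBI + CD. Both TBI groups lay above all Sham + VH libraries for both genes, and the third TBI + VH library was the highest for both. In TBI + VH 2 of 4 genes were called beside 0.529% of all genes, Gfap with a log2 fold change of 1.40 (SE 0.23, adjusted p = 0.00515) and Vim with 1.73 (SE 0.17, adjusted p = 4.19e-05). The Gfap call was lost when only the 8 libraries compared were fitted (1.40, adjusted p = 0.114). With the choroid plexus score in the fit both calls stayed, at 1.26 for Gfap (adjusted p = 0.0164) and 1.70 for Vim (adjusted p = 6.74e-05).

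In TBI + CD at 29 dpi 1 of 4 genes was called, beside 0.119% of all genes. Vim rose by 1.03 (SE 0.17, adjusted p = 0.0189). Gfap gave 0.80 (SE 0.23, adjusted p = 0.352), which became a call without the third TBI + VH library (adjusted p = 0.0431). The Vim call did not hold when replicate 2, 3 or 4 of the vehicle shams or replicate 2 or 3 of the injured candesartan group was left out, with log2 fold changes of 0.97 to 1.01 and adjusted p up to 0.100. Against Sham + CD, TBI + CD gave 0.90 for Gfap (adjusted p = 0.115) and 1.27 for Vim (adjusted p = 0.00149). Nes stood at 0.34 and 0.37 above Sham + VH and Synm at −0.04 and 0.03, none called.

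Related genes were also counted in the hippocampus at 29 dpi, where 0.523% of all genes were called upward with vehicle and 0.113% with candesartan. In TBI + VH the filament partners gave 1 of 9, S100a6, by 1.28 (SE 0.18, adjusted p = 0.00147), the regulators gave 1 of 18, Osmr, by 1.24 (SE 0.17, adjusted p = 0.00107), and both were named after their values were seen. Among 11 other intermediate filament genes edgeR called 0 in either TBI group, with 2 and 3 at an unadjusted p under 0.05 and 0 called by DESeq2. Among 10 other astrocyte genes edgeR called 0, with 5 and 6 at an unadjusted p under 0.05 and 1 and 0 called by DESeq2, and the medians were 0.157 and 0.158. Microglia markers rose in 3 of 8 in TBI + VH and in 1 of 8 in TBI + CD, and their sum was 293 to 325 CPM and 247 to 297 CPM in these groups.

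In the thalamus and hypothalamus at 29 dpi no member was called after injury. In the thalamus 0% of all genes were called in either TBI group. Thalamic Gfap stood at 99.3, 118, 182 and 85.7 CPM in Sham + VH, at 201, 165, 115 and 149 CPM in TBI + VH and at 132, 153, 276 and 745 CPM in TBI + CD. The fourth TBI + CD library was far above all others, and its microglia markers summed to 335 CPM and its choroid plexus markers to 1424 CPM, where the other 3 libraries held at most 231 and 56.4 CPM. Gfap gave log2 fold changes of 0.37 (SE 0.46) in TBI + VH and 1.43 (SE 0.46, adjusted p = 0.763) in TBI + CD, which was 0.62 without the fourth library. Hypothalamic Gfap stood at 247, 230, 202 and 201 CPM in the vehicle shams and at 285, 252, 276 and 321 CPM in TBI + VH, with no overlap. Its log2 fold change was 0.36 (SE 0.10, 95% confidence interval 0.15 to 0.57, adjusted p = 1), while 0.00583% of all genes, a single gene, was called. In the TBI + CD group, where 0% of all genes were called, it was 0.21 (SE 0.10).

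Candesartan alone moved no member past the test in any region or at either time. In the hippocampus at 3 dpi 1.50% of all genes were called in Sham + CD against Sham + VH, 0.0836% upward, and 0 of the 4 members, which gave log2 differences of 0.02 for Gfap (95% confidence interval −0.35 to 0.38), −0.24 for Vim (−0.78 to 0.30), −0.28 for Nes (−1.07 to 0.51) and −0.06 for Synm (−0.17 to 0.05). In every other region and time 0% of all genes were called between the sham groups. In the hypothalamus at 29 dpi, Vim stood at 35.4, 21.0, 26.5 and 19.2 CPM in Sham + CD against 39.5, 50.1, 38.6 and 37.5 CPM in Sham + VH, with no overlap. The differences there were −0.71 for Vim (SE 0.29, adjusted p = 0.356), −0.77 for Nes (SE 0.36, adjusted p = 0.376) and −0.27 for Synm (SE 0.12, adjusted p = 0.356). The ependyma and tanycyte markers in the same groups summed to 28.0 to 108 CPM, with a median of 31.5, and to 109 to 156 CPM, with a median of 114. Their part in the 3 differences was not tested.

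Between the 2 injured groups no member was called in any region or at either time, where 0% of all genes were called. In the hippocampus at 3 dpi, TBI + CD minus TBI + VH was 0.02 for Gfap (95% confidence interval −0.34 to 0.38) and −0.02 for Vim (−0.52 to 0.48). At 29 dpi it was −0.60 for Gfap (SE 0.23, −1.08 to −0.13, adjusted p = 0.882) and −0.70 for Vim (SE 0.16, −1.04 to −0.36, adjusted p = 0.745), and Vim ranked 8 of 16832 by p. Without the third TBI + VH library, these values were −0.24 for Gfap and −0.50 for Vim. In the thalamus at 29 dpi the Gfap difference had the opposite sign, at 1.06 (SE 0.46, 95% confidence interval 0.09 to 2.03, adjusted p = 1), and was 0.26 without the fourth TBI + CD library. In the hippocampus at 29 dpi, Vim ranged over 62.7 to 82.2 CPM in TBI + CD and 80.6 to 165 CPM in TBI + VH. These ranges overlapped by 1 library on each side. The candesartan-by-injury term in the hippocampus was 0.01 for Gfap (−0.51 to 0.52) and 0.22 for Vim (−0.52 to 0.95) at 3 dpi, and −0.50 for Gfap (−1.17 to 0.18) and −0.46 for Vim (−0.96 to 0.04) at 29 dpi, with 0% of all genes called at both times. The terms at 29 dpi were −0.14 for Gfap and −0.26 for Vim without the third hippocampal TBI + VH library. Over the 22 comparisons in which edgeR called no member, 12 of 88 values had an unadjusted p under 0.05, and DESeq2 called 0.

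The difference between regions in the response to injury was tested directly. The change from Sham + VH to TBI + VH at 3 dpi was larger in the hippocampus than in the thalamus by 1.90 log2 units for Gfap (SE 0.38, adjusted p = 0.00478) and 3.24 for Vim (SE 0.46, adjusted p = 0.000279), 2 of 4 genes beside 2.98% of all genes. It was larger in the hippocampus than in the hypothalamus by 3.04 for Gfap (SE 0.38, adjusted p = 2.11e-05) and 3.18 for Vim (SE 0.45, adjusted p = 7.89e-05), 2 of 4 beside 4.83%. Thalamus and hypothalamus differed by 1.14 for Gfap (SE 0.38, adjusted p = 1) and −0.06 for Vim (SE 0.45), with no member and 0% of genes called. Nes and Synm were called in none of these 3 tests.

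The response in the hippocampus was also smaller at 29 dpi than at 3 dpi. These were separate cohorts with different routes of dosing, so an effect of time alone cannot be told apart. The change from Sham + VH to TBI + VH at 29 dpi minus that at 3 dpi was −2.23 for Gfap (SE 0.36, adjusted p = 0.00367) and −2.12 for Vim (SE 0.34, adjusted p = 0.0034), 2 of 4 genes beside 2.21% of all genes. The summed per-kilobase level of the 4 genes in TBI + VH was 1130 ± 244 CPM at 3 dpi and 262 ± 114 CPM at 29 dpi, against 99.6 ± 17.9 and 102 ± 19 CPM in Sham + VH. In the thalamus the difference for Gfap was −1.30 (SE 0.44, 95% confidence interval −2.24 to −0.37, adjusted p = 1), with no member and 0% of genes called.

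**Figure D5:**
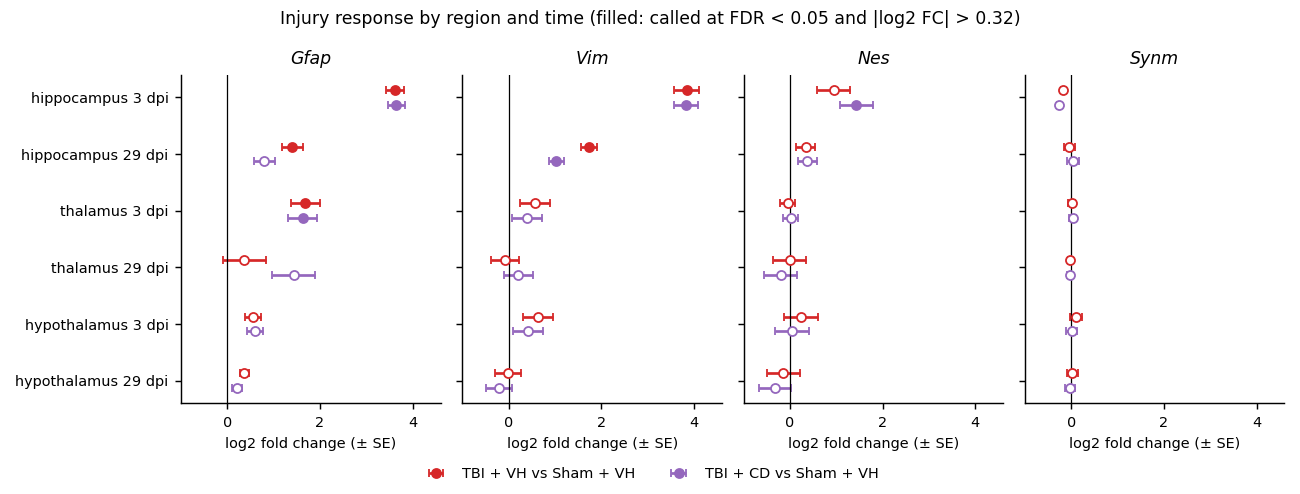
Log2 fold change (± SE) against Sham + VH of each gene in TBI + VH and TBI + CD, by region and time point, on 1 scale for the 4 genes. Filled points were called. Gfap and Vim reach 3.62 to 3.85 in the hippocampus at 3 dpi, Gfap alone is called in the thalamus at 3 dpi, and Synm stays near 0 throughout.

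Within groups, the 4 genes did not vary as a unit. Deviations of log2 levels from the group mean correlated between Gfap and Vim at 0.774 in the 32 hippocampal libraries, 0.806 in the 32 thalamic and −0.512 in the 32 hypothalamic libraries. Nes went with the endothelial list in all 3 regions, at 0.618, 0.847 and 0.64. Gfap and Synm correlated at −0.635 in the hippocampus. These are descriptions, since libraries of a group share a mean and all share the scaling.

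The genes whose pattern over all 96 libraries was most like each member were ranked by Pearson correlation among 15161 genes, each centred on its region and time point. For Gfap they were C1qb (0.951), C1qc (0.950) and C4b (0.950). For Vim they were S100a6 (0.950), Cnn3 (0.949) and Msn (0.949). Nes had lower values, with Ptrf (0.815), Palld (0.803) and Wwtr1 (0.796), and Synm the lowest, with Ocln (0.709), Cfap74 (0.671) and Wwc1 (0.667). Over the 80 libraries that remain without the hippocampus at 3 dpi, the values for the same partners were 0.881 to 0.910 for Gfap, 0.849 to 0.868 for Vim, 0.747 to 0.811 for Nes and 0.664 to 0.726 for Synm.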

How the data were processed

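The deposited tables hold raw read counts per gene that the authors made from poly(A)-selected, strand-specific paired-end libraries with MapSplice (mm10) and HTSeq 0.9.1. The gene annotation and strand setting of the counting are not given in the sources used here. From these counts, each region and time point was fitted with edgeR 4.0.16 (TMM factors, default filter on low counts, quasi-likelihood F test, 2-sided) with its 16 libraries in 1 fit. P-values were adjusted by the Benjamini-Hochberg method over all genes tested. A gene was called where its adjusted p was below 0.05 and its log2 fold change was larger than 0.32 in either direction. Sham + VH region contrasts and differences in injury response used 24 libraries of Sham + VH and TBI + VH, and the time contrasts 16. Regions were treated as independent samples, although the labels do not say which came from 1 mouse. Levels are TMM-scaled CPM over all 96 libraries, and levels per kilobase used merged GENCODE exons (GRCm38). The procedure was tested on simulated data. Among the 144 pairs of libraries within a group, the counts differed by 2.66 to 48.6 times the sampling noise (chi-square per degree of freedom), so none was treated as a duplicate. Genes named are the 4 members and, from each list, the 3 most abundant genes called in TBI + VH in the hippocampus at 3 dpi, with exceptions marked. The members and lists were chosen with earlier results of these data known. Alternatives were DESeq2 1.42.0, other scaling, no filter, an adjusted p alone, Sham + CD as the control, fewer or more libraries in a fit, a choroid plexus score, a replicate block and leaving out each library.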

Additional observations from a re-analysis of the deposited data

Results flagged for a closer look

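Injury responses that differed between regions or times in a direct test were Gfap and Vim in the hippocampus against the thalamus at 3 dpi (1.90 and 3.24 log2 units), in the hippocampus against the hypothalamus (3.04 and 3.18), and in the hippocampus at 29 against 3 dpi (−2.23 and −2.12).

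Single libraries stood apart from the other 3 of their group, by Dixon's test at its 95% critical value, in 10 of 96 gene-by-group sets, where chance gives about 1 in 20. For Vim these were 42.8 CPM in hippocampus Sham + VH replicate 1 at 29 dpi (others 31.6 to 33.0), 16.6 CPM in thalamus Sham + CD replicate 2 at 29 dpi (34.7 to 36.6) and 50.1 CPM in hypothalamus Sham + VH replicate 2 at 29 dpi (37.5 to 39.5). For Nes they were 8.49 CPM in hypothalamus Sham + CD replicate 2 at 3 dpi (10.5 to 10.8) and 12.2 CPM in thalamus TBI + CD replicate 1 at 29 dpi (6.77 to 7.30). For Synm at 3 dpi they were 43.3 CPM in thalamus Sham + VH replicate 4 (48.0 to 48.8) and 34.9 CPM in hypothalamus TBI + VH replicate 4 (40.6 to 41.3). For Synm at 29 dpi they were 37.4 CPM in hippocampus TBI + VH replicate 3 (59.3 to 63.0), 52.2 CPM in hippocampus Sham + CD replicate 4 (60.2 to 61.4) and 58.1 CPM in thalamus TBI + VH replicate 1 (52.4 to 52.7). The hippocampal TBI + VH library with the lowest Synm also held the most Gfap and Vim of its group.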

How the results depend on the processing

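Of 3600 values of the 4 genes under alternatives, 3560 kept their direction where called and their side of the threshold, and 0 called values changed direction. DESeq2, size factors by relative log expression and no filter on low counts changed no call among 148 values each. Fitting only the groups compared gave 0 members called instead of 1 in the thalamus at 3 dpi (TBI + VH) and 1 instead of 2 in the hippocampus at 29 dpi (TBI + VH), and added Nes in the hippocampus at 3 dpi (TBI + VH, adjusted p = 0.0192). Sham + CD as the control gave 0 instead of 1 in the thalamus at 3 dpi (TBI + CD). Fitting all 48 libraries of 3 dpi gave 2 instead of 1 for hippocampus against hypothalamus in Sham + VH. An adjusted p alone added Synm in the hippocampus at 3 dpi in both TBI groups. The cause was not tested, beyond the fewer or more libraries in the fits themselves.

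Leaving out 1 library gave 0 to 1 members called in the thalamus at 3 dpi in TBI + VH and in TBI + CD, 0 to 2 in the hippocampus at 29 dpi in TBI + CD, 1 to 2 for hippocampus against hypothalamus in Sham + VH at 3 dpi, and 1 to 2 for thalamus against hypothalamus in Sham + VH at 3 dpi. For hippocampus against hypothalamus the second call was Gfap, which entered without hippocampus Sham + VH replicate 1, hypothalamus Sham + VH replicate 1 or 2 or any thalamus TBI + VH library.

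Every same-numbered pair of libraries deviated together in 1 of 36 pairs of groups within a region and time (correlations of −0.65 to 0.758). The same held in 1 of 24 pairs of regions within a group (−0.336 to 0.652). Libraries with different numbers were not compared, so these values cannot decide whether the replicate numbers pair the samples. With the replicate block, 2 instead of 1 members were called for hippocampus against hypothalamus in Sham + VH at 3 dpi, the added gene being Gfap (adjusted p = 0.0428), and Nes was called between hypothalamus and the other two regions at 29 dpi (adjusted p = 0.0226 and 0.0253). No other call of the members changed with the block. The effect of depth was not tested; Nes was the least abundant member, at 3.53 to 64.4 CPM over all libraries.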
